A study of Mus musculus with 32 samples.

Results

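Ngfr, the gene of the neurotrophin receptor p75NTR, was followed through 32 bulk RNA libraries of mouse skin and of epidermal organoids. It is 1 of 19970 gene names in the count files and was chosen by name. The choice rested on measured values, namely its presence in sorted epidermis, its absence or near absence in anagen follicles and early Fgf1 organoids, and its uneven return in late organoids. Its levels in those groups are therefore a description without a test. In the mm10 genome (GRCm38, GENCODE annotation) Ngfr is a protein-coding gene on the minus strand of chromosome 11, from 95568818 to 95587735, with 6 exons and 0 overlapping genes.

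p75NTR is a single-pass receptor of the tumour necrosis factor receptor superfamily that binds the neurotrophins, secreted factors of neurons and skin. It has no kinase of its own: it works beside the Trk receptor kinases, with sortilin as the receptor for unprocessed neurotrophins, or through adaptor proteins, and it is cut by a metalloprotease and then by gamma-secretase. In skin it is known from Schwann cells, from regressing hair follicles and from keratinocytes.

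All material came from skin of the Bl/6 mouse strain. The labels do not state the ages of the mice. The tissue groups were cells sorted from interfollicular epidermis as Itga6+Sca1+ (3 libraries), anagen (growth phase) follicles (3 libraries) and a mixture of anagen and telogen (resting phase) follicles (3 libraries). Organoids are self-organised clusters of cultured epidermal cells, collected 7 days after culture or passage. Unpassaged organoids were grown in 5 media (1 library each): forskolin, an activator of adenylyl cyclase, either alone or combined with Fgf10, Fgf1 (both fibroblast growth factors) or a TGF-beta inhibitor, and the inhibitor on its own. Early organoids, at passages 7 to 12 and within 3 months of culture, were grown with forskolin and Fgf10 (4 libraries), forskolin and Fgf1 (2), forskolin and the inhibitor (4) or the inhibitor alone (2). Late organoids, at passages 23 to 30 and within 6 months, were all grown with forskolin and Fgf1 (6 libraries). The labels do not say whether the replicates are separate mice or cultures, so a p-value here reflects only how far these libraries vary, and that variation may be technical.

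Library totals ran from 412582 to 3351435 counts with a median of 1505354, and the sorted epidermis was the shallowest tissue group (469839 to 739531). The tissue labels were checked against their defining genes. All 12 basal keratinocyte genes had counts in sorted epidermis, with a summed level of 32658 to 35016 CPM (counts per 1000000 counts of the library total). The 12 hair matrix and inner root sheath genes summed to 47751 to 63791 CPM in anagen follicles against 1228 to 1402 CPM in sorted epidermis. Sorted epidermis also held Langerhans cell genes (438 to 739 CPM over 8 genes) and T cell genes (59.6 to 122 CPM over 5 genes). The files fall into 11 sets by the gene names they list. Of these sets, 2 each hold exactly 1 follicle group, and 2 mix early and unpassaged groups or several early media. The epidermal and late libraries fall into 3 and 4 sets of their own. Group and gene list thus cannot be told apart between epidermis, either follicle group, late organoids and the earlier organoids.

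Ngfr was a steady transcript of sorted epidermis and was missing from anagen follicles. The 3 epidermal libraries gave 63.9, 77.1 and 66.6 CPM, from 30, 57 and 36 counts (69.2 ± 6.98 CPM, SD, n = 3). The 3 anagen libraries do not list the gene, which is a count of 0 in each. At their depth, 3 counts would have been 1.46, 1.97 and 1.54 CPM. Against a floor of 3 counts over the 3 anagen libraries (0.543 CPM), the epidermal mean was at least 127-fold higher. The mixed follicles were low but not empty: 1.43, 1.79 and 1.44 CPM from 2, 6 and 2 counts (1.56 ± 0.203 CPM, SD, n = 3), so the epidermal mean was 44.5-fold higher than theirs. No epidermal library overlapped a follicle library. The 12 basal keratinocyte genes were also lower in follicles, at 399 to 2844 CPM in anagen and 7550 to 14102 CPM in mixed libraries. In epidermis they summed to 32658 to 35016 CPM. Their part in the Ngfr gap was not tested. Fewer Ngfr-bearing cells and less Ngfr RNA per cell cannot be told apart in bulk samples, here and in every comparison that follows.

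Culture began at a low Ngfr level in every medium. The unpassaged libraries gave 5.51 CPM with forskolin alone, 2.91 CPM with Fgf10, 7.78 CPM with Fgf1, 4.33 CPM with forskolin and the inhibitor, and 4.94 CPM with the inhibitor alone. These rest on 9, 4, 8, 9 and 11 counts. Their exact Poisson 95% intervals all overlap, from 0.792 to 7.44 CPM for Fgf10 and from 3.36 to 15.3 CPM for Fgf1, so no order among the media could be seen at this depth. Every unpassaged library lay below every epidermal library.

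Early organoids kept low levels that differed more between media. With forskolin and Fgf1 the libraries gave 0.821 and 0.781 CPM, from 2 counts each, so Ngfr was near the limit of detection there but not absent. The mean of sorted epidermis was 86.4-fold higher than theirs (0.801 ± 0.0288 CPM, SD, n = 2). With forskolin and Fgf10 the 4 libraries gave 2.35, 1.34, 2.51 and 1.84 CPM. With the inhibitor alone they gave 8.17 and 4.14 CPM. With forskolin and the inhibitor they gave 4.09, 14.0, 13.7 and 7.40 CPM, and the last 3 rest on 26, 32 and 12 counts, the only early libraries with more than 9.

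Late Fgf1 organoids held both the highest Ngfr levels of the series and a level as low as in early culture. Replicates 1, 2 and 3 gave 404, 383 and 209 CPM, from 225, 158 and 655 counts. Replicates 4, 5 and 6 gave 5.21, 35.6 and 28.6 CPM, from 4, 23 and 30 counts. The first 3 libraries lay above every epidermal library and the other 3 below every one, so the group mean of 178 ± 183 CPM (SD, n = 6) describes none of them. The highest late library was 77.7-fold above the lowest.

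**Figure D1:**
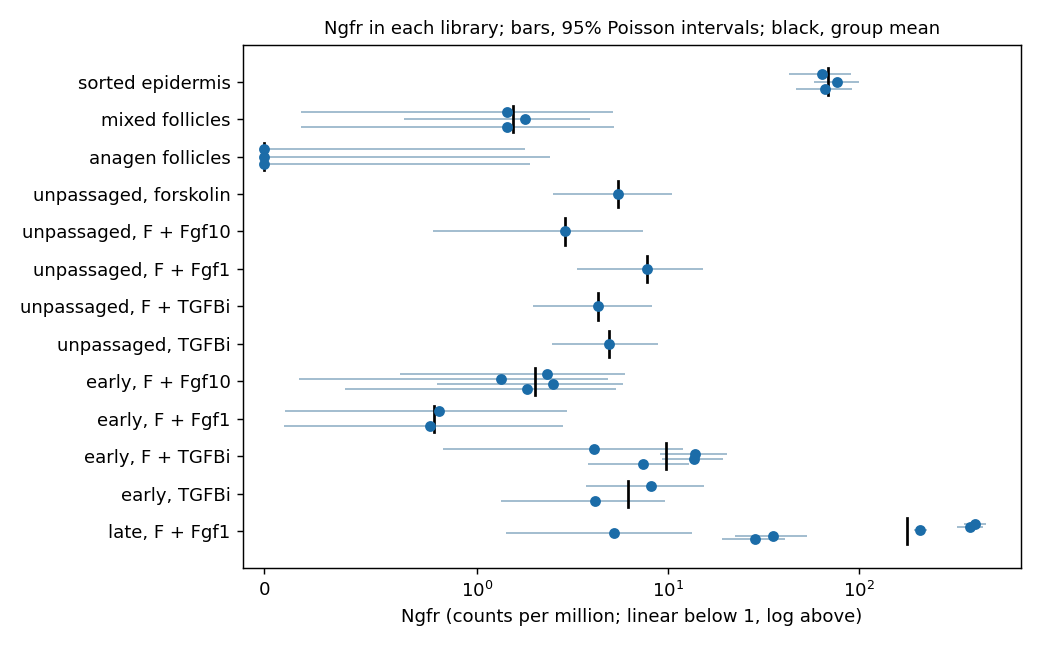
Ngfr in CPM in each of the 32 libraries (points, with exact 95% Poisson intervals) by group (rows), with the group mean as a black line, on an axis that is linear below 1 and logarithmic above. F is forskolin and TGFBi the TGF-beta inhibitor. The 3 epidermal libraries sit together between 63.9 and 77.1, the anagen libraries at 0, and the 6 late libraries spread from 5.21 to 404.

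Ordered by mean, late organoids came first and sorted epidermis second, followed by early forskolin and inhibitor, unpassaged Fgf1, early inhibitor alone, unpassaged forskolin, unpassaged inhibitor alone, unpassaged forskolin and inhibitor, unpassaged Fgf10, early Fgf10, mixed follicles, early Fgf1 and anagen follicles. The ranges of late organoids and sorted epidermis overlap. Below the gap under sorted epidermis, each group from early forskolin and inhibitor down to mixed follicles overlaps the next one, in its range or, for a single library, its Poisson interval. Mixed follicles, early Fgf1 organoids and anagen follicles do not overlap in CPM, but these 3 groups hold 10, 4 and 0 counts in all.

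The late libraries differ as widely in Krt10, the keratin that suprabasal keratinocytes make once they leave the basal layer. Krt10 stood at 12.6, 2.42 and 26.2 CPM in late replicates 1, 2 and 3, where Ngfr stood at 404, 383 and 209 CPM. It stood at 5911, 941 and 5285 CPM in late replicates 4, 5 and 6, where Ngfr stood at 5.21, 35.6 and 28.6 CPM. The 3 libraries with the most Ngfr thus had the least Krt10, and the library with the least Ngfr had the most Krt10. Because the 6 libraries form 2 separate clusters of 3, no correlation over them is given. Within each cluster the order is close to inverse too, except that replicate 2 has slightly less of both than replicate 1, a difference in Ngfr that lies inside the Poisson intervals (353 to 461 CPM and 326 to 448 CPM).

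Outside the late organoids the 2 genes showed no single order. Sorted epidermis had Ngfr at 63.9 to 77.1 CPM together with Krt10 at 1366 to 1704 CPM. Among the late libraries, replicate 5 was nearest to epidermis in both. Early forskolin and inhibitor libraries 2 and 3, the highest in Ngfr among the organoids that are not late (14.0 and 13.7 CPM), had low Krt10 (412 and 187 CPM). Early organoids with forskolin and Fgf10 had little Ngfr (1.34 to 2.51 CPM) with Krt10 at 3626 to 6438 CPM, but the early Fgf1 library with only 493 CPM of Krt10 had just 0.781 CPM of Ngfr. Anagen follicles had little of either, with Krt10 at 147, 54.6 and 18.5 CPM. Over all 32 libraries the Spearman rank correlation of Ngfr with Krt10 was -0.04, a description over libraries that share groups and depth.

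**Figure D2:**
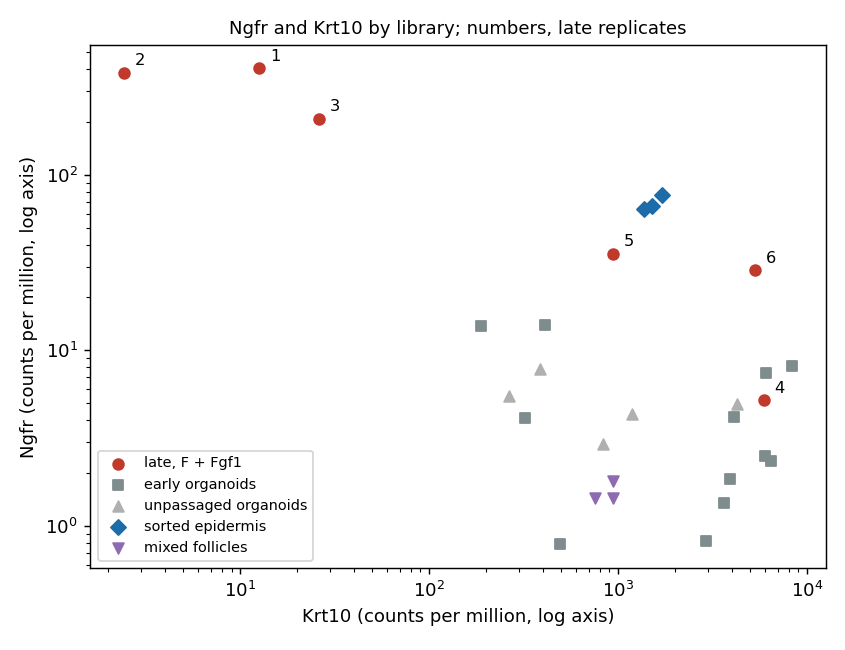
Ngfr against Krt10, both in CPM on logarithmic axes, with 1 point per library and the late replicates numbered. The anagen libraries, at 0 Ngfr, cannot be drawn on these axes. Late replicates 1, 2 and 3 lie at the upper left, above 200 CPM of Ngfr and below 30 CPM of Krt10, where no other library lies.

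The list of keratinocyte differentiation genes separates the same late libraries, but it holds Krt10 itself. Its 15 genes also include loricrin (Lor) and Krt1. They summed to 286, 388 and 3853 CPM in replicates 1, 2 and 3. In replicates 4, 5 and 6 they summed to 34107, 10907 and 23411 CPM. The 12 basal genes overlapped between these libraries, at 21241, 29900 and 32712 CPM against 16281, 21875 and 24312 CPM. Krt5, the basal keratin, was at 13684, 18755 and 18716 CPM in replicates 1, 2 and 3 and at 8673, 7791 and 7590 CPM in the others. The 8 proliferation genes, which include Top2a and Cdk1, summed to 4344 and 3827 CPM in replicates 1 and 2, but replicate 3, also high in Ngfr, had 568 CPM, like the 571 to 812 CPM of replicates 4, 5 and 6. So a high proliferation sum went with 2 of the 3 libraries that are high in Ngfr. The part of cell composition in the Ngfr levels was not tested.

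The defining genes of other cells that make p75NTR had no count in late organoids, but the summed Schwann cell list was not at 0 and differed between groups in the same direction as Ngfr in 2 comparisons. Of 13 Schwann cell and nerve genes, Sox10, S100b, Cdh19, Foxd3 and Gfap had no count in any late library. The list summed to 205, 104 and 152 CPM in late replicates 1, 2 and 3 and to 92.4, 115 and 80.9 CPM in replicates 4, 5 and 6, against 57.8 and 68.2 CPM in early Fgf1 organoids. Most of the late sum came from Ncam1 (33.3 to 169 CPM) and Mbp (21.9 to 79.0 CPM). Ncam1 and the sum were both highest in replicate 1, the library highest in Ngfr. Of 8 melanocyte genes, Tyr, Tyrp1, Dct, Kit and Sox10 had no count and the sum was 0 to 3.52 CPM. In sorted epidermis 7 of the 13 Schwann cell genes, Sox10 among them, had no count. Yet the list summed to 77.7 to 140 CPM there against 30.3 to 53.9 CPM in anagen follicles, without overlap. In mixed follicles, where Ngfr was at 1.43 to 1.79 CPM, it summed to 73.8 to 96.7 CPM and overlapped epidermis. Melanocyte genes summed to 8.51 to 25.9 CPM in epidermis and 81.6 to 352 CPM in anagen follicles. Sox10 had a mean of 7.14 CPM in anagen and 15.3 CPM in mixed follicles. The part of these cells in the Ngfr levels was not tested.

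Other lists followed Ngfr in part. The 12 genes of the outer root sheath and bulge summed to 5792, 6004 and 9778 CPM in late replicates 1, 2 and 3 and to 4516, 6001 and 8851 CPM in replicates 4, 5 and 6, so the whole list overlapped. Sox9 in that list, a transcription factor of follicle keratinocytes, was at 4204, 3405 and 776 CPM in the 3 libraries high in Ngfr and at 139, 885 and 272 CPM in the others. The 8 Langerhans cell genes did separate them, at 261, 254 and 285 CPM against 84.6, 141 and 112 CPM. That sum came mainly from Epcam, an adhesion molecule also made by epithelia, and in replicate 2 from H2-Ab1 (119 CPM), while Cd207, which defines the cell type, and Lyz2 had no count in the 6 libraries. Fibroblast and dermal papilla genes overlapped between the libraries (669 to 1123 CPM and 205 to 790 CPM over 10 genes). The 8 Merkel cell genes summed to 35.9, 182 and 206 CPM in late replicates 1, 2 and 3 and to 230, 52.6 and 114 CPM in replicates 4, 5 and 6, mainly from Sox2, with Atoh1 and Syp at 0. Endothelial and mural genes summed to 55.7, 16.97 and 244 CPM against 23.4, 9.28 and 0.952 CPM over 7 genes. Their part in the Ngfr levels was not tested.

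The late libraries also differ in depth and in their gene lists. Replicates 1 and 2 share 1 list, replicates 4 and 5 another, and replicates 3 and 6 have lists of their own. Within the second pair Ngfr was 5.21 CPM beside 5911 CPM of Krt10 in replicate 4, and 35.6 CPM beside 941 CPM of Krt10 in replicate 5. Totals were 556414, 412582 and 3127190 counts in replicates 1, 2 and 3, so high Ngfr came with the shallowest and with the deepest late library. High against low Ngfr and the gene list cannot be told apart between the pairs.

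**Figure D3:**
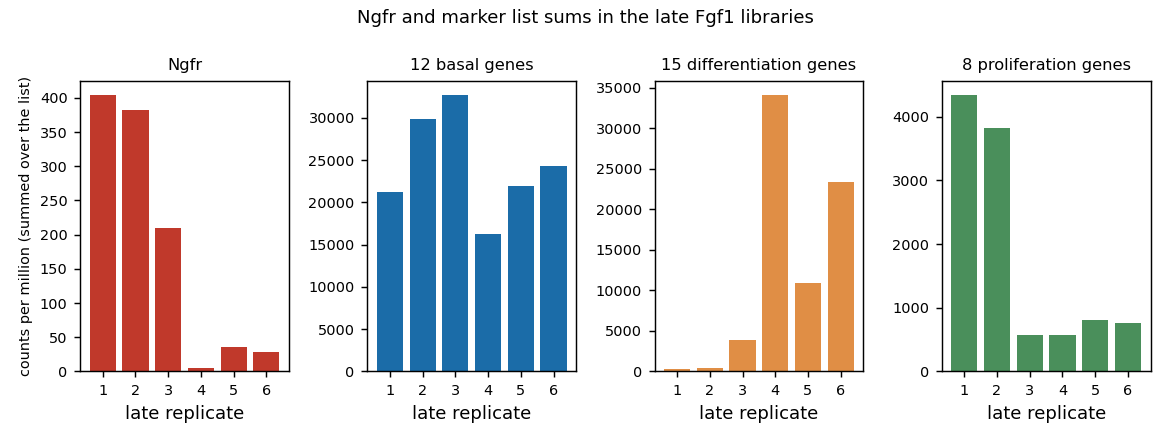
Ngfr and the summed CPM of 12 basal, 15 differentiation and 8 proliferation genes in the 6 late libraries (bars, 1 per replicate, each panel on its own axis from 0). Replicates 1, 2 and 3 have the tallest Ngfr bars and the shortest differentiation bars, and only replicates 1 and 2 stand out in proliferation genes. The 15 differentiation genes include Krt10.

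The choice of Ngfr did not use the media that contain the inhibitor or Fgf10, so these could be tested. Early organoids with forskolin and the inhibitor had 9.78 ± 4.86 CPM of Ngfr (SD, n = 4) against 2.01 ± 0.527 CPM with forskolin and Fgf10 (SD, n = 4), a 4.87-fold difference of the means, and the 2 sets of libraries did not overlap. Of the 9919 genes tested, 4.63% were likewise higher in every inhibitor library. The Ngfr counts were few, at 4, 2, 5 and 3 in the Fgf10 libraries and 3 in inhibitor library 1. The Poisson interval of inhibitor library 1 (0.843 to 11.9 CPM) overlaps those of the Fgf10 libraries, of which the highest reaches 6.01 CPM. In edgeR's quasi-likelihood fit of all 18 passaged libraries the log2 fold change was 2.21 (SE 1.03), with a Benjamini-Hochberg adjusted p of 0.665, which does not pass the 0.05 threshold that 0.575% of genes passed. That fit shares its estimate of spread with the late libraries, among which Ngfr varied most. In a fit of the 12 early libraries alone, added after the data were seen, the log2 fold change was 2.22 and the edgeR adjusted p 0.0225. The share of all genes called in that fit was not recorded. An exact two-sided permutation test of the 8 CPM values, also added, gave p = 0.0286, the smallest that 4 against 4 libraries allow, and 0.0571 after adjustment over the 2 such tests.

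These 8 libraries differ in Krt10 as well, without a matching order. Inhibitor libraries 1, 2 and 3 had 320, 412 and 187 CPM of Krt10 and the Fgf10 libraries 3626 to 6438 CPM, but inhibitor library 4, with 6041 CPM of Krt10, still had more Ngfr (7.40 CPM) than any Fgf10 library. The proliferation genes summed to 1035 to 2605 CPM with the inhibitor and 518 to 1331 CPM with Fgf10. Without overlap, the basal genes summed to 22483 to 28407 CPM with the inhibitor and 31109 to 36462 CPM with Fgf10, and the fibroblast and dermal papilla genes to 7.27 to 14.99 CPM and 26.2 to 188 CPM. Their part in the difference was not tested. None of 28 pathway genes differed between these media in edgeR, with 4 at an unadjusted p under 0.05. DESeq2 called 1, the sortilin relative Sorcs2, for which edgeR gave a log2 fold change of -2.32 (adjusted p = 0.0638).

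Forskolin added to the inhibitor made no detectable difference. Ngfr was 9.78 ± 4.86 CPM (SD, n = 4) with both agents and 6.16 ± 2.85 CPM (SD, n = 2) with the inhibitor alone, with overlapping ranges. The log2 fold change was 0.72 (SE 1.19, edgeR adjusted p = 0.989) in the 18-library fit, in which 0% of 9919 genes were called, 623 had an unadjusted p under 0.05 and DESeq2 called 24. The exact permutation test gave p = 0.667, where 0.0667 is the smallest possible.

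Passaging up to passages 7 to 12 left Ngfr without a clear shift. Over the inhibitor and Fgf10 media, with medium as a term, early libraries had 5.95 ± 4.72 CPM (SD, n = 10) and unpassaged libraries 4.06 ± 1.04 CPM (SD, n = 3). The log2 fold change was 0.67 (SE 0.47, edgeR adjusted p = 0.387). Without the unpassaged library grown with forskolin and the inhibitor it was 0.12. With the 3 Fgf1 libraries added, whose early level entered the choice of the gene, it was -0.10 (edgeR adjusted p = 0.929). The unpassaged libraries share a gene list with only 1 of the 10 early libraries, so stage and list can hardly be told apart.

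The rest of the pathway was read from 41 genes in 4 lists: ligands, receptors and co-receptors, intracellular adaptors of p75NTR, and the enzymes that cut the receptor or process its ligands. Ngfr itself is left out, and 40 of the 41 names occur in the files. Between sorted epidermis and anagen follicles 31 could be tested. Of these, 3 were higher in epidermis and 5 lower, against 14.8% and 19.4% of all genes, 34.2% in all. Their median log2 fold change was 0.26, and that of all genes tested -0.15. The count was 5 without anagen replicate 3. TMM scaling itself lowers epidermis against anagen by 0.46 log2 units relative to plain CPM.

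The ligands of p75NTR separated the tissues in opposite ways. Ntf3, which encodes neurotrophin 3, was present in sorted epidermis at 21.3, 23.0 and 25.9 CPM, from 10, 17 and 14 counts. All 6 follicle libraries had no Ntf3 count. Against a floor of 3 counts over the anagen libraries, epidermal Ntf3 was at least 43.1-fold higher (edgeR adjusted p = 0.00117). Bdnf, which encodes brain-derived neurotrophic factor, went the other way, with 21.4, 11.8 and 9.24 CPM in anagen follicles and 2.13, 4.06 and 0 CPM in epidermis (log2 fold change -3.07, SE 1.00, edgeR adjusted p = 0.0235). Ntf5, the neurotrophin 4 gene, was at 0 to 3.89 CPM in anagen and 1.85 to 4.26 CPM in epidermal libraries and was too low to test.

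Among the receptors, Sort1, which encodes sortilin, fell from 80.2, 70.4 and 74.4 CPM in anagen follicles to 6.39, 16.2 and 9.25 CPM in epidermis (log2 fold change -3.35, SE 0.79, edgeR adjusted p = 0.00322). Rtn4r, the Nogo receptor that can signal in a complex with p75NTR, was higher in epidermis, at 17.03, 13.5 and 9.25 CPM against 0.486, 0 and 0 CPM (log2 fold change 5.23, SE 0.94, edgeR adjusted p = 0.000437). So Ngfr and Rtn4r were both high in epidermis, where Sort1 was low. Of the Trk kinases, Ntrk3 had no count in epidermis and 2.43, 0 and 0 CPM in anagen. Ntrk2, the receptor kinase for brain-derived neurotrophic factor, stood at 43.4 ± 21.9 CPM in epidermis and 12.8 ± 12.6 CPM in anagen follicles (SD, n = 3 each), a difference within the test's error (edgeR adjusted p = 0.195). Tnfrsf19, a relative of p75NTR that can take its place beside the Nogo receptor, was at 140 ± 26.1 CPM and 74.6 ± 55.6 CPM (edgeR adjusted p = 0.658).

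Further called genes lay downstream. Traf6, an adaptor of the receptor, was lower in epidermis (14.4 against 31.9 CPM, log2 fold change -1.69). So were 2 gamma-secretase subunits, Psenen (124 against 280 CPM, -1.79) and Ncstn (28.9 against 69.0 CPM, -1.86). Adam17, the metalloprotease that sheds the outer part of p75NTR, was higher (41.9 against 12.7 CPM, 1.25). The edgeR adjusted p-values of these 4 genes were 0.0115, 0.00697, 0.00607 and 0.00675.

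In late organoids the pathway differed from epidermis in 13 of 31 genes, 7 higher and 6 lower, where 12.2% and 9.53% of all genes were called, 21.8% in all. The median log2 fold change of the 31 genes was 0.31 and that of all genes 0.04. This count was 6 without epidermal replicate 1, 6 without replicate 2 and 8 without replicate 3, with 2 genes higher in each case and 4, 4 and 6 lower. With late replicates 1 to 3 alone it was 12, and with late replicates 4 to 6 alone it was 12 too. The share of all genes called was not recorded for these fits with libraries left out, so their counts cannot be read as a pathway result. Which genes they share was not compared.

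The epidermal neurotrophin Ntf3 was missing from late organoids. It had no count in any of the 6 late libraries and was at least 51.2-fold lower than in epidermis, against a floor of 3 counts over the late libraries (edgeR adjusted p = 0.000953). Bdnf was found in late replicate 1 only, at 5.39 CPM. Ntf5 stood at 5.39, 0, 6.40, 0, 7.74 and 4.76 CPM in late replicates 1 to 6 and did not follow Ngfr across them.

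Receptors that accompany Ngfr in epidermis were low in late organoids whatever the Ngfr level. Ntrk2 was at 0, 7.27, 0, 1.301, 0 and 4.76 CPM in late replicates 1 to 6, against 66.0, 41.9 and 22.2 CPM in epidermis (log2 fold change -4.36, SE 0.84, edgeR adjusted p = 0.00143). Rtn4r was at 0, 2.42, 0.320, 0, 0 and 0 CPM (-4.84, SE 0.79, edgeR adjusted p = 0.000356). Tnfrsf19 was at 3.59, 0, 0.320, 50.8, 1.55 and 0.952 CPM against 168, 116 and 137 CPM in epidermis (-3.70, SE 0.90, edgeR adjusted p = 0.00702), and its single high value is in late replicate 4, the library lowest in Ngfr. Sort1 was not called, but its late levels of 1.80, 0, 11.5, 29.9, 21.7 and 31.4 CPM were lowest in the 3 libraries highest in Ngfr. The share of all genes with such a split was not recorded. Sorcs2, a sortilin-related receptor that also pairs with p75NTR, was higher in late organoids, at 18.1 to 43.6 CPM against 4.26 to 8.11 CPM in epidermis (log2 fold change 2.34, SE 0.71, edgeR adjusted p = 0.0257). Ntrk3 had no epidermal count and reached 26.7 CPM in late replicate 2, with 0 to 3.59 CPM in the others.

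Of the adaptors and enzymes called against epidermis, 6 were higher and 2 lower in late organoids, with all 3 epidermal libraries in the fit. Maged1, an adaptor that binds p75NTR, stood at 273, 189 and 186 CPM in late replicates 1, 2 and 3 and at 126.2, 101 and 64.8 CPM in replicates 4, 5 and 6, against 23.4 to 38.8 CPM in epidermis (log2 fold change 2.59, SE 0.45, edgeR adjusted p = 0.000653). The 3 libraries high in Ngfr were thus above the other 3 in Maged1. Among those other 3, Maged1 was highest in replicate 4, the library lowest in Ngfr. The share of all genes that separate the late libraries in this way was not recorded, so such a split is a description only. Arhgdia, an inhibitor of small GTPases that p75NTR can displace, split in the same way, with 196, 138 and 319 CPM against 61.2, 60.3 and 70.5 CPM, and was called higher than epidermis (1.39, edgeR adjusted p = 0.0379). Rac1 (1.14) and Rhoa (0.96), 2 such GTPases, were also higher, with edgeR adjusted p-values of 0.0269 and 0.0385. Furin, the protease that matures neurotrophins, rose from 66.6 ± 25.9 CPM (SD, n = 3) to 233 ± 53.6 CPM (SD, n = 6), a log2 fold change of 1.98 (edgeR adjusted p = 0.000404). Of the gamma-secretase subunits, Ncstn was higher (1.29, edgeR adjusted p = 0.0422), while Psen2 (-1.87, edgeR adjusted p = 0.0416) and Aph1b (-1.71, edgeR adjusted p = 0.0399) were lower.

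**Figure D4:**
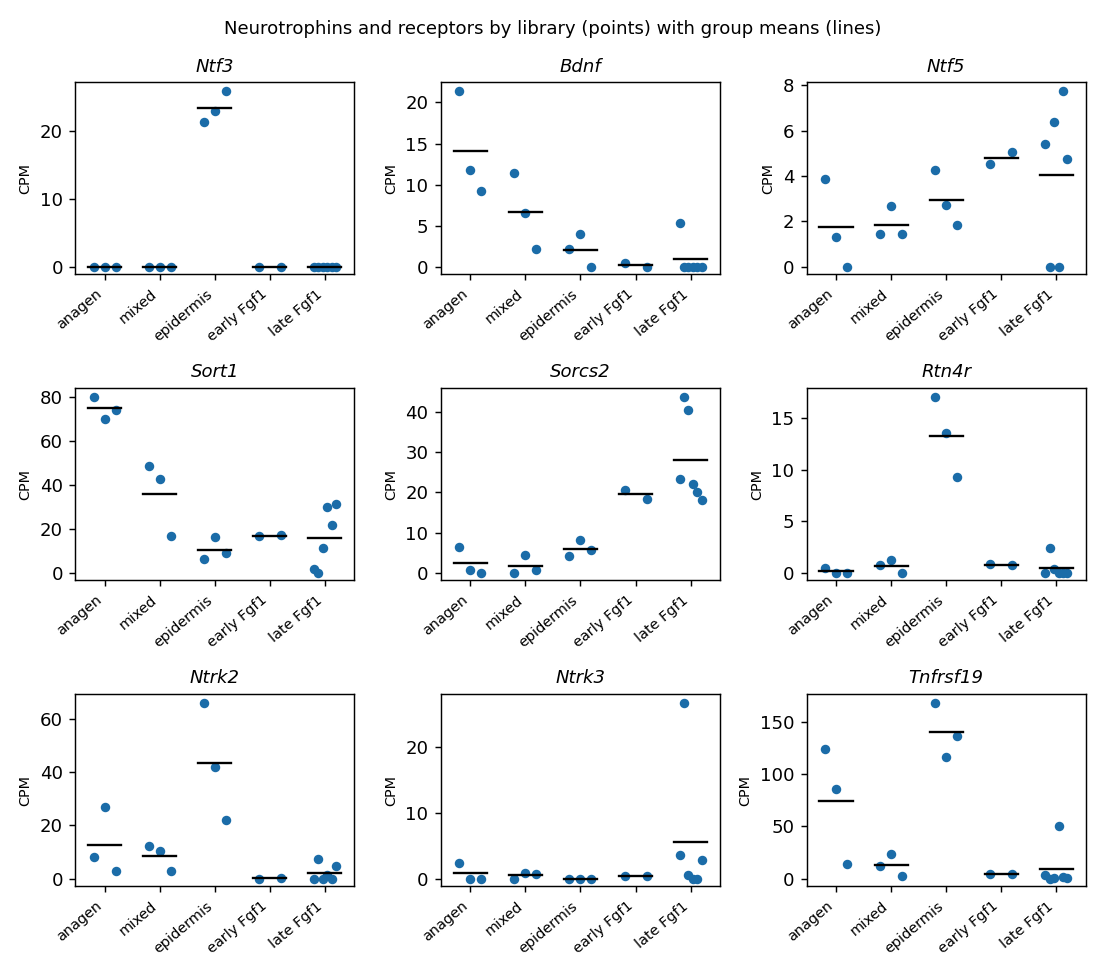
CPM of 3 neurotrophin genes and 6 receptor genes (panels) in each library (points) with the group mean (line), for anagen follicles, mixed follicles, sorted epidermis, early Fgf1 organoids and late Fgf1 organoids. Of these groups only epidermis has Ntf3 counts, Sort1 is highest in anagen follicles, and the late organoids lack the epidermal levels of Rtn4r, Ntrk2 and Tnfrsf19.

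Between early and late Fgf1 organoids Ngfr went from a mean of 0.801 CPM to values between 5.21 and 404 CPM, levels that entered the choice of the gene. Several marker lists separated these stages as well: Merkel cell genes summed to 18.5 and 12.1 CPM in the early libraries against 35.9 to 230 CPM in the late ones, and basal genes to 45293 and 45724 CPM against 16281 to 32712 CPM. Their part in the Ngfr difference was not tested. No early library shares a gene list with a late one, so stage and list cannot be told apart here. Of 28 pathway genes tested, 1 rose and 2 fell, where 2.99% and 3.72% of all genes were called, 6.71% in all. These counts are too few to set the pathway apart from all genes. The median log2 fold change of the 28 genes and of all genes was 0.08. Furin rose (111 to 233 CPM, log2 fold change 0.97, edgeR adjusted p = 0.0457). Psenen, a gamma-secretase subunit, was 1 of those that fell (283 to 105 CPM, -1.49, edgeR adjusted p = 0.0302). The early group is only 2 libraries, and the count was 1 without early replicate 1 and 0 without early replicate 2.

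Passaging in the inhibitor and Fgf10 media changed none of the 29 pathway genes tested by edgeR, where 8.31% of all genes were called. At an unadjusted p under 0.05 there were 6, and DESeq2 called 1. The count was 2 without early Fgf10 replicate 1 and 2 without early forskolin and inhibitor replicate 1. In this comparison Sort1 was at 18.5 ± 5.27 CPM (SD, n = 10) and 18.9 ± 0.889 CPM (SD, n = 3).

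The other members of the TNF receptor superfamily show how far Ngfr stood with its family. Between epidermis and anagen follicles 6 of 14 tested were higher in epidermis and 1 lower, where 14.8% and 19.4% of all genes were called, with a median log2 fold change of 1.97. Ltbr, the lymphotoxin beta receptor (131 against 19.8 CPM, 2.21, edgeR adjusted p = 0.000229), Tnfrsf1a, the main TNF receptor (110 against 18.03 CPM, 2.20, edgeR adjusted p = 0.00138) and Tnfrsf18 (86.2 against 6.57 CPM, 3.38, edgeR adjusted p = 0.000215) were among the 6. In late organoids against epidermis 4 of 14 were higher and 3 lower, where 12.2% and 9.53% of all genes were called. Tnfrsf23, a decoy receptor and the family member highest over all groups, was at 252 ± 173 CPM (SD, n = 6) against 10.6 ± 3.87 CPM (SD, n = 3; 4.80, edgeR adjusted p = 0.000826). Unlike Ngfr, Tnfrsf23 was at 286, 271 and 281 CPM in late replicates 1, 2 and 3 and at 19.5, 531 and 127 CPM in replicates 4, 5 and 6, and its early Fgf1 mean was already 112 CPM.

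The genes whose pattern was most like that of Ngfr were named by Spearman rank correlation of CPM, among 10200 genes with at least 10 counts in at least 3 libraries. Over the 13 group means they were Opa1 (0.92), Wdr24 (0.90), Acbd6 and Tjap1 (0.89 each), Clns1a and Nub1 (0.88 each), Celf4, Rnf220, Rassf1 and Rin1 (0.87 each). Over the 32 libraries they were Cd47 (0.89), Myo1c and Anxa4 (0.87 each), Trim62, Ajuba and Slc39a13 (0.86 each), Irak4, Ccdc163 and Tjap1 (0.85 each) and Hyal2 (0.84). Tjap1 alone stood in both lists. These are descriptions over libraries that share groups, tissue and depth.

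Such likeness rests on rank, and the sizes differ. Rin1 averaged 6.55 CPM in anagen follicles, 366 CPM in epidermis and 207 CPM in late organoids. Its late values of 311, 647 and 67.8 CPM in replicates 1, 2 and 3 and 53.4, 119 and 41.9 CPM in replicates 4, 5 and 6 separate 2 of the 3 libraries that are high in Ngfr. Cd47, the surface ligand that restrains phagocytes, averaged 12.1 CPM in anagen follicles and 97.7 CPM in epidermis, and stood at 142, 150 and 136 CPM in late replicates 1, 2 and 3 against 46.8, 85.1 and 85.7 CPM in replicates 4, 5 and 6. Cd47 split the late libraries as Ngfr did, over a far smaller range. It was picked for likeness over libraries that include these late ones, so its split is no separate finding. Anxa4, an annexin, was at 205, 240 and 161 CPM and at 180, 323 and 176 CPM, and did not split them.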

How the data were processed

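RNA was measured by CEL-seq2, which counts tags at the 3′ end of transcripts, with 75 bp paired-end NextSeq500 sequencing per the labels' protocols. Per the submitters' processing notes BWA 0.6.2-r126 and the mm10 genome were used. The counting tool, the annotation and the handling of molecular identifiers were not given in the sources used here. Raw counts per gene were deposited (all 491527 values whole and at least 0). Spike-in (ERCC) rows were left out, and a gene that a file does not list was taken as 0.

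CPM are counts per 1000000 counts of the library total. Exact Poisson intervals (95%) and floors of 3 counts cover counting error only. Genes were tested with edgeR 4.0.16 (filterByExpr with a minimum count of 10, TMM, quasi-likelihood, Benjamini-Hochberg over all genes, threshold 0.05), after tests on simulated data. DESeq2 1.42.0, other scalings, no filter, a replicate block and omitted libraries were alternatives. The gene, the lists and the tests were chosen with earlier results of these data known. Named genes were the 9 neurotrophin, receptor and Trk genes (some listed genes are not reported here), up to 4 called genes per list and comparison by fold, the 10 most like Ngfr and the most abundant markers and family members.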

Additional observations from a re-analysis of the deposited data

Results flagged for a closer look

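In 27 pairs of a gene and a group of 4 or 6 libraries, the gap between the extreme library and its neighbour was compared with the group's range. For normally distributed values chance marks about 1 in 20 such groups. That rate need not hold for low counts, and a group with counts in only 1 library is always marked. Here 4 were marked, each for 1 high library. Krt10 in early organoids with forskolin and the inhibitor was 6041 CPM in replicate 4, and the next library had 412 CPM. In late organoids Bdnf was 5.39 CPM in replicate 1 and 0 in the other 5. Ntrk3 was 26.7 CPM in late replicate 2, and the next value was 3.59 CPM. Tnfrsf19 was 50.8 CPM in late replicate 4, and the next value was 3.59 CPM. The late Ngfr values form 2 clusters and were not marked.

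Ngfr was also found in libraries that entered no test of it. The unpassaged library with forskolin alone had 5.51 CPM, above the 1.84 CPM that 3 counts give there. The mixed follicles had a mean of 1.56 CPM, above the 0.489 CPM that 3 counts over the group give.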

How the results depend on the processing

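The mean Ngfr level of sorted epidermis moved from 69.2 CPM to 54.9 CPM with TMM factors over the 32 libraries and to 60.2 CPM with upper quartile factors, and that of mixed follicles from 1.56 CPM to 2.67 and 2.43 CPM. The other 11 group means moved by less than their SD or Poisson interval. With 1 library left out, the group means in CPM ran from 132 to 212 in late organoids, 65.2 to 71.8 in epidermis, 8.39 to 11.7 in early forskolin and inhibitor, 4.14 to 8.17 in early inhibitor alone, 1.84 to 2.23 in early Fgf10, 1.44 to 1.62 in mixed follicles and 0.781 to 0.821 in early Fgf1.

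Early forskolin and inhibitor against early Fgf10 passed the threshold only with the 12 early libraries alone (log2 fold change 2.22, edgeR adjusted p = 0.0225). For that fit the share of all genes called was not recorded. The exact permutation test (difference 7.77 CPM) gave p = 0.0286, and 0.0571 after adjustment. Leaving out 1 library gave log2 fold changes of 1.96 to 2.43 (edgeR adjusted p 0.529 to 1.00). Against the inhibitor alone they ran from 0.29 to 1.29. Early against unpassaged ran from 0.12 to 1.00 and reversed to -0.10 with the Fgf1 libraries.

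Counts of called pathway genes with 1 library left out ran from 5 to 8 for epidermis against anagen, 6 to 14 for late organoids against epidermis, 0 to 3 for late against early and 0 to 2 for early against unpassaged. The last was 3 with no filter, 1 with DESeq2 and 3 with the Fgf1 libraries. Late against early was 5 with late replicates 1 to 3 alone. The share of all genes called was not recorded for the fits with libraries left out. Of the 10 genes most like Ngfr over group means, 4 were shared with TMM scaling and 2 with Pearson correlation on log2(CPM + 1). Over libraries, 7 and 2 were shared.

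Deviations of same-numbered libraries from their group means had correlations from -0.14 to 0.33. Differently numbered libraries were not compared, so this check cannot tell whether the numbers mark pairs. The numbers are used here as names of libraries only. With the replicate block the Ngfr log2 fold changes were 2.35, 1.38 and 0.44, none called by edgeR, and the pathway counts 9, 10, 4 and 0. In simulated data edgeR called 17.2% of genes changed 4-fold between epidermis and anagen follicles (10148 genes). Between early and unpassaged organoids (9454 genes) it called 86.5% of such genes, so a gene not called may differ. Far fewer genes were changed in the simulation than the 34.2% called between epidermis and anagen follicles. Gene levels in it were averaged over the libraries of each fit. These rates are therefore not those of the real fits.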
